A study of Mus musculus with 6 samples.

Results

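The genes described here encode the families of enzymes that add methyl groups to histone lysines and remove them. They were chosen by name from the deposited RNA-seq table as every protein-coding gene whose symbol starts with *Kdm*, *Kmt*, *Setd*, *Setdb*, *Ehmt*, *Suv39h* or *Prdm* followed by a number, and 53 of the 54532 genes in the table met this rule after 1 *Prdm* gene was left out. The study compared STRA8+ germ cells of the mouse testis from 3 control libraries, whose genotype is given as Cre, with 3 libraries of *Srsf1* knockout cells made by conditional knockout (cKO). SRSF1 is a splicing factor that binds pre-mRNA. The Cre driver, the age of the mice and the number of animals behind each library are not given in the sources used here, and nothing in the labels says that the libraries came from separate animals, so the p-values measure only the spread between these libraries, which may be technical.

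Methylation of histone lysines marks the state of chromatin. H3K4 methylation is found at active promoters and enhancers, H3K36 methylation over transcribed gene bodies, H3K27 and H3K9 methylation over silent genes and heterochromatin, and H4K20 methylation over compacted chromatin. SET domain proteins write these marks, and they are erased by flavin-dependent LSD enzymes and by iron-dependent enzymes with a JmjC domain. In male germ cells, H3K9 methylation is required for meiotic prophase, and the marks are remodelled again when spermatocytes become spermatids. PRDM proteins carry a domain related to the SET domain together with zinc fingers, and many of them act as DNA-binding regulators without a known methyltransferase activity.

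Between 14447887 and 17310353 fragments were counted on genes in each library. *Srsf1* was at 84.7, 45.2 and 51.9 FPKM (fragments per kilobase, adjusted for the size of each library) in control replicates 1 to 3 and at 5.08, 4.94 and 5.17 FPKM in cKO replicates 1 to 3, so that 8.36% of the control mean was left (log2 fold change -3.29 ± 0.22 SE, limma adjusted p = 5.65e-05). Genes with an adjusted p of at most 0.05 are referred to as called, and higher or lower refers to cKO. *Stra8*, the gene used to define the cells, was at 222 to 262 FPKM in control and 242 to 313 FPKM in cKO libraries and was not called (adjusted p = 0.359). Markers of late stages differed between the groups. All 8 pachytene spermatocyte markers and all 10 spermatid markers passed the test and were lower in cKO. Their summed level was 1087 to 1280 FPKM for the pachytene list and 2583 to 8622 FPKM for the spermatid list in control, against 221 to 248 FPKM and 8.61 to 10.4 FPKM in cKO, and the highest spermatid sum was that of control replicate 2. Of the marker lists of earlier germ cells, 1 of 9 undifferentiated spermatogonia genes tested was higher and 1 lower, 1 of 8 differentiating spermatogonia genes was lower, and 2 of 10 early meiotic genes were lower. Of the somatic lists, 1 of 7 Sertoli cell genes was higher, *Rhox5*, and none of the 3 Leydig cell, 2 peritubular cell or 2 macrophage and blood genes tested was called, while both endothelial genes were under the filter. The higher spermatogonial gene, *Ret*, lost its call without control replicate 3, cKO replicate 1 or cKO replicate 3, and *Rhox5* without control replicate 1, control replicate 2, cKO replicate 1 or cKO replicate 3, while 1 peritubular gene was called higher without control replicate 2 or control replicate 3. Without control replicate 2, 3 undifferentiated and 2 differentiating spermatogonia genes were higher and 4 early meiotic genes were lower. Without control replicate 1 or cKO replicate 1, 1 differentiating gene was higher. Under quantile normalisation, 4 undifferentiated, 5 differentiating, 1 Leydig cell and 2 peritubular genes were higher, where 33.4% of all genes tested were. With limma-voom, 3 undifferentiated, 2 differentiating, 1 Leydig cell and 1 peritubular gene were higher, where 16.1% of all genes tested were. In such bulk samples, fewer cells of a stage and less RNA per cell cannot be told apart, and the part of the stage markers in the differences below was not tested.

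Of the 53 genes, 46 averaged 1 FPKM or more across all 6 libraries and were tested with all other such genes, 15451 in all, on log2(FPKM + 1). At an adjusted p of at most 0.05, 8 were higher in cKO, 17.4% of the 46, where 11.8% of all genes tested were called higher. Another 5 were lower, 10.9% of the 46, where 22.2% of all genes tested were called lower. The median log2 fold change was 0.11 over the 46 genes and -0.01 over all genes tested. The 3 cKO libraries lay above the 3 control libraries for 16 of the 46 genes, against 21.8% of all genes tested, and below them for 10, against 28.6%. On the log2(FPKM + 1) scale, which compresses low levels, 1 of the 46 genes had an absolute log2 fold change of at least 1, *Kdm4d*. With a pseudocount of 0.1, *Kdm4d* (-2.19), *Setd1b* (-1.47) and *Kmt2c* (1.03) were past 1. The counts of calls depended on single libraries and on scaling. The higher calls fell to 5 without cKO replicate 1. The lower calls rose to 9 without control replicate 2 and fell to 2 without control replicate 1, control replicate 3 or cKO replicate 1, and to 3 without cKO replicate 2 or cKO replicate 3. Quantile normalisation gave 20 higher and 2 lower calls and shifted the median of all genes to 0.22 on the log2 scale, while limma-voom on the fragments gave 15 and 5, and FPKM without the library factor of the authors gave 11 and 4. Over all genes tested, the shares called higher and lower were 33.4% and 16.4% with quantile normalisation, 16.1% and 21.6% with limma-voom, and 14.8% and 21.1% without the library factor. *Kmt2a*, *Kmt2c*, *Setd2* and *Kdm4d* were called under each of the 15 alternatives that keep the threshold on the adjusted p alone, and *Setd1b* under each of the 14 of these in which it was tested. A minimum absolute log2 fold change of 1 on the log2(FPKM + 1) scale left *Kdm4d* only.

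**Figure D1:**
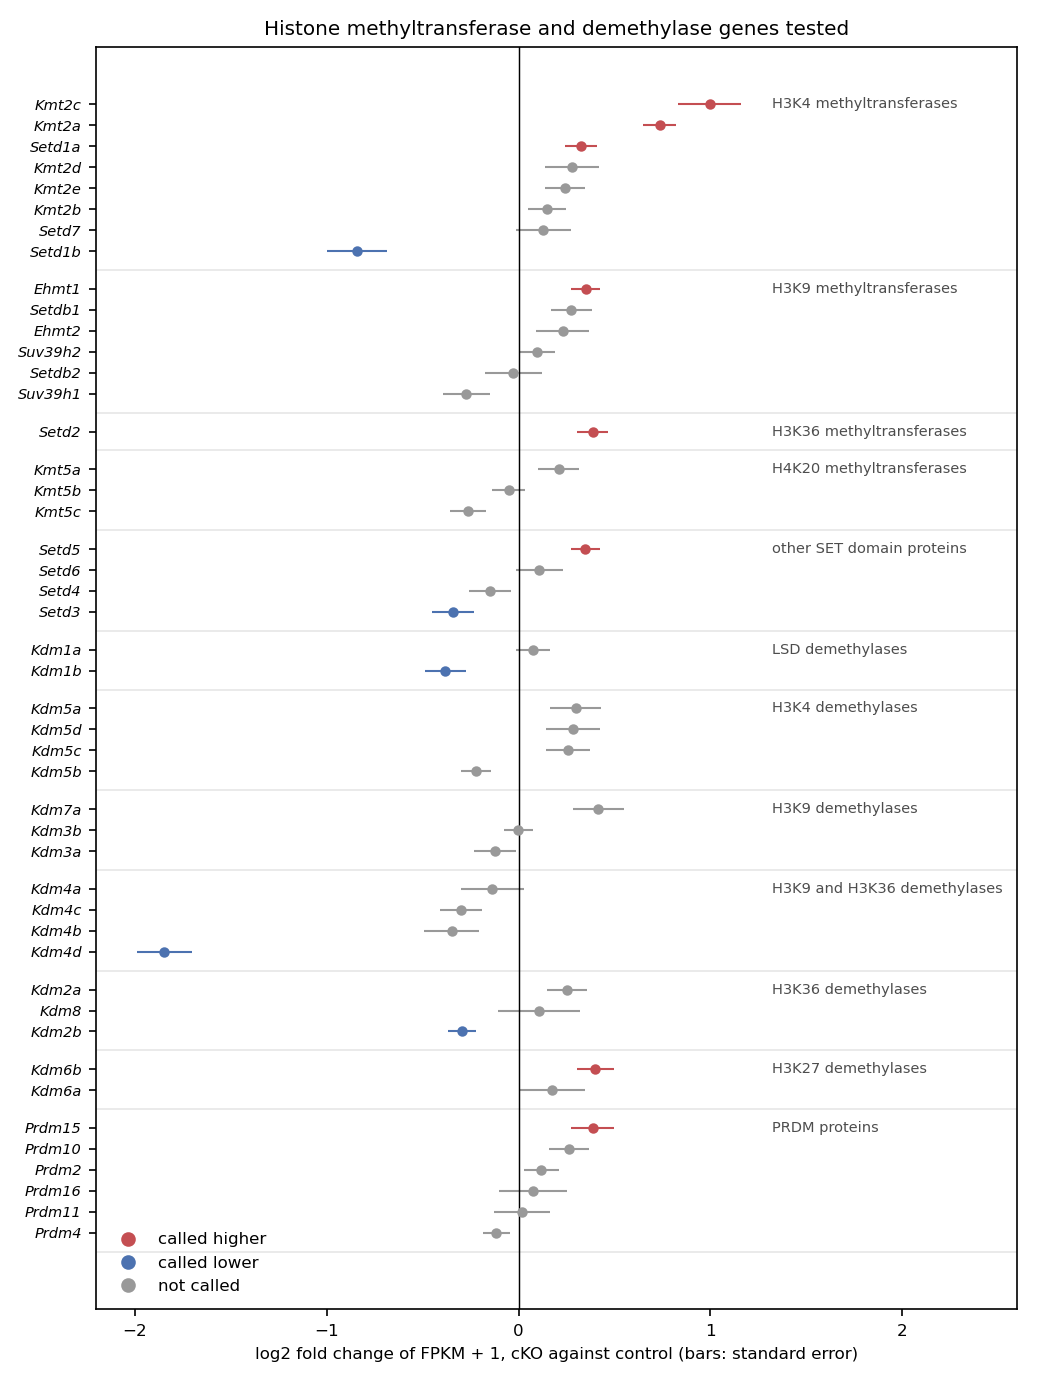
Log2 fold change of FPKM + 1, cKO against control (x axis), of the 46 genes tested, grouped by the residue on which each enzyme acts. Points are limma estimates from 3 control and 3 cKO libraries and bars are standard errors, in red for the 8 genes called higher, in blue for the 5 called lower and in grey for the 33 not called. *Kdm4d* stands at -1.85, and *Kmt2c* at 1.00 and *Kmt2a* at 0.74 have the largest rises.

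The methyltransferases of H3K4 had a higher summed level in cKO, and the called members differed in direction. Of the 8 genes, 3 were called higher (*Kmt2c*, *Kmt2a* and *Setd1a*, 37.5% against 11.8% of all genes tested) and 1 lower (*Setd1b*, 12.5% against 22.2%), and their summed level was 121 to 137 FPKM in control and 168 to 182 FPKM in cKO libraries, or 135% of the control mean. *Kmt2c* (MLL3), a catalytic subunit of the complex that places H3K4 monomethylation at enhancers, was at 19.4, 15.4 and 21.2 FPKM in control and at 32.0, 46.1 and 36.8 FPKM in cKO. The lowest cKO library was above the highest control library, and the means of 18.7 ± 2.99 and 38.3 ± 7.20 FPKM (SD, n = 3 each) differed 2.05-fold (log2 fold change 1.00 ± 0.16 SE, limma adjusted p = 0.00377). *Kmt2a* (MLL1), the H3K4 methyltransferase that maintains Hox gene expression, was at 14.5, 13.01 and 15.6 FPKM in control and at 25.2, 23.6 and 24.7 FPKM in cKO. Its groups were well apart, with a rise of 1.71-fold (log2 fold change 0.74 ± 0.08 SE, adjusted p = 0.000718). Leaving out any 1 library kept both calls, with adjusted p of 0.00617 to 0.0167 for *Kmt2c* and 0.00126 to 0.00602 for *Kmt2a*.

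*Kmt2d* and *Kmt2b*, the closest relatives of these genes, were not called. *Kmt2d* (MLL4), which shares the enhancer complex with KMT2C, was at 7.80, 10.1 and 9.32 FPKM in control and at 13.4, 9.81 and 10.5 FPKM in cKO (log2 fold change 0.28 ± 0.14 SE, adjusted p = 0.174), and was called higher under quantile normalisation only (0.48, adjusted p = 0.0257). The groups overlapped through cKO replicate 2. *Kmt2b* (MLL2), the relative of *Kmt2a* that acts at CpG-rich promoters and is needed in oocytes, was more abundant, at 47.7, 44.1 and 46.1 FPKM in control and 58.7, 46.3 and 48.7 FPKM in cKO, also with overlapping groups (log2 fold change 0.15 ± 0.10 SE, adjusted p = 0.289). *Kmt2e*, a relative without known catalytic activity on H3K4, and *Setd7*, which monomethylates H3K4 and other proteins, had log2 fold changes of 0.24 and 0.13 and adjusted p of 0.12 and 0.513. Both were called higher under quantile normalisation, and *Kmt2e* also with limma-voom. The summed level of *Kmt2a* to *Kmt2d* was 82.5 to 92.2 FPKM in control and 121 to 129 FPKM in cKO libraries.

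*Setd1a* and *Setd1b* encode alternative catalytic subunits of the SET1 complexes, which place most H3K4 trimethylation, and they moved in opposite directions. *Setd1a* was at 27.4, 23.8 and 27.4 FPKM in control and at 34.8, 32.9 and 31.4 FPKM in cKO. Each cKO library was above each control library (log2 fold change 0.33 ± 0.08 SE, adjusted p = 0.0222), although the call was lost without cKO replicate 1 (adjusted p = 0.0735) or cKO replicate 2 (0.0555). *Setd1b* was far lower in level, at 1.70, 2.17 and 2.02 FPKM in control and at 0.791, 0.436 and 0.752 FPKM in cKO, from 337, 402 and 422 fragments against 150, 77 and 138 fragments. The groups did not overlap, and 33.6% of the control mean was left (log2 fold change -0.84 ± 0.16 SE, adjusted p = 0.00669). On the scale with a pseudocount of 0.1 in place of 1 its log2 fold change was -1.47, with limma-voom it was -1.56, and with quantile normalisation it was -0.42. The 2 genes also differ in how safely their reads can be assigned. No other gene overlaps the exons of *Setd1b* (plus strand, chr5:123142193-123168629, GRCm38), whereas 52.27% of the exonic bases of *Setd1a* (plus strand, chr7:127776670-127800122) also belong to other annotated genes, nearly all of them to *Gm49388* on the same strand, to which at most 1 fragment was assigned in any library.

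*Kmt2c* lies on the minus strand of chr5:25271798-25498783 with 20291 exonic bases, and *Kmt2a* on the minus strand of chr9:44803355-44881296 with 16670 exonic bases (GRCm38, GENCODE). Their promoters, from 250 bases before to 50 bases after the RefSeq start (GRCm38.p6), are printed because they belong to the genes with the 2 largest rises. The *Kmt2c* window is chr5:25498734-25499033 and the *Kmt2a* window chr9:44881240-44881539, both read on the minus strand.
Kmt2c: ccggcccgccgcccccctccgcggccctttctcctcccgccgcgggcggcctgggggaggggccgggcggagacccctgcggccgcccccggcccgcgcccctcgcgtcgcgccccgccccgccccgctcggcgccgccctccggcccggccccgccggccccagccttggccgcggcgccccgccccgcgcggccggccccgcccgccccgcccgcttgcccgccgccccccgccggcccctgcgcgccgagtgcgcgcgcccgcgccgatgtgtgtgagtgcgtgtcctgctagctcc
Kmt2a: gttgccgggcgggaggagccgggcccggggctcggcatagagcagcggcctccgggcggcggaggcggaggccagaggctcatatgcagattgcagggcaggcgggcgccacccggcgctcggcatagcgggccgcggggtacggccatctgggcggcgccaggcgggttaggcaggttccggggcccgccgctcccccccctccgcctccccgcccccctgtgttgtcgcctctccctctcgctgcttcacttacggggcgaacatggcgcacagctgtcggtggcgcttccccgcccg
Both windows are rich in G and C, 88.0% with 56 CpG dinucleotides for *Kmt2c* and 75.7% with 36 CpG for *Kmt2a*, where the median over all 27025 promoters in the table was 52.7% with 7 CpG. Neither holds TGACG, the motif CCGGAAG, the motif CCAAT or the motif AACNG on either strand. A promoter was found for 41 of the 53 genes. The median GC content was 73.7% for the 7 called higher that had one, 66.0% for the 4 called lower and 60.3% for the 26 that were tested and not called. CCAAT, the core bound by NF-Y, was in the windows of none of the 7 genes called higher, 2 of the 4 called lower and 57.7% of the 26 not called, against 37.9% of all promoters. Among the 7, the *Setd5* window (39.7% GC, 1 CpG) starts at chr6:113104685, far inside the gene, whose annotated start on the plus strand is chr6:113077365.

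**Figure D2:**
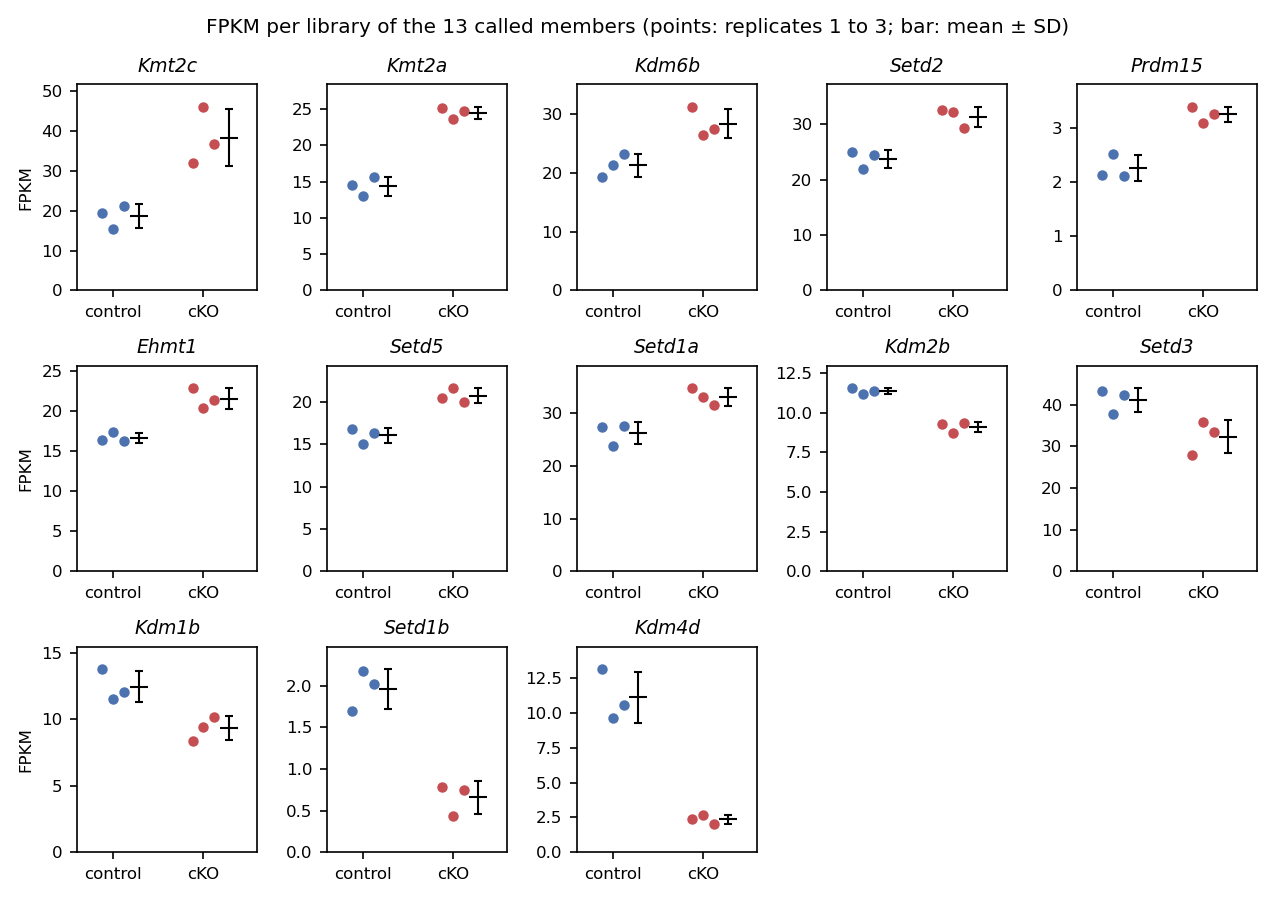
FPKM (y axis, from 0, with its own range in each panel) of the 13 called genes in control replicates 1 to 3 (blue) and cKO replicates 1 to 3 (red), with the mean and SD of each group in black. The groups are apart in every panel, by the most in proportion for *Kdm4d*, from 9.62 to 13.2 FPKM in control against 2.001 to 2.70 FPKM in cKO.

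Among the 6 methyltransferases of H3K9, *Ehmt1* was called higher (16.7%, against 11.8% of all genes tested) and none was lower (against 22.2%). *Ehmt1* (GLP), which dimethylates H3K9 in euchromatin as a partner of EHMT2, was at 16.4, 17.4 and 16.3 FPKM in control and at 22.9, 20.3 and 21.4 FPKM in cKO (log2 fold change 0.35 ± 0.07 SE, limma adjusted p = 0.0116). The groups did not overlap, and the call held without any 1 library (adjusted p of 0.0155 to 0.0468). *Ehmt2* (G9a) was at 65.3, 87.7 and 71.0 FPKM in control and at 98.5, 75.6 and 88.8 FPKM in cKO, with overlapping groups and no call (log2 fold change 0.23 ± 0.14 SE, adjusted p = 0.243). It remained several times more abundant than *Ehmt1* per length in each library. *Setdb1*, which trimethylates H3K9 at retroelements and on the meiotic sex chromosomes, had the highest level of all 53 genes, 79.6 ± 9.41 FPKM in control and 96.3 ± 8.36 FPKM in cKO (SD, n = 3 each; adjusted p = 0.0928). *Setdb2* and the heterochromatin enzymes *Suv39h1* and *Suv39h2* had log2 fold changes of -0.03, -0.27 and 0.10. None of these was called in the main test, though *Setdb1* was higher under quantile normalisation, limma-voom and FPKM without the library factor, *Suv39h2* higher under quantile normalisation and *Suv39h1* lower without control replicate 2. The X-linked *Suv39h1* was at 34.3 to 47.9 FPKM in control against 32.8 to 35.3 FPKM in cKO.

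*Setd2*, the enzyme that trimethylates H3K36 behind elongating RNA polymerase II, rose. It was at 24.9, 21.9 and 24.5 FPKM in control and at 32.6, 32.3 and 29.3 FPKM in cKO (log2 fold change 0.39 ± 0.08 SE, limma adjusted p = 0.0108). The groups were apart, and the call held without any 1 library (adjusted p of 0.0215 to 0.0415). None of the H4K20 methyltransferases was called, although *Kmt5a* was higher under quantile normalisation and *Kmt5c* lower without control replicate 2. *Kmt5a*, which places the monomethyl mark, had a log2 fold change of 0.21, and *Kmt5b* and *Kmt5c*, which extend it, had -0.05 and -0.26, the cKO libraries of *Kmt5c* lying below the control libraries (37.6 to 38.7 FPKM against 40.5 to 51.4 FPKM, adjusted p = 0.0724).

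The remaining SET domain genes were split. *Setd5*, a regulator of transcription whose own methyltransferase activity is debated, was at 16.8, 15.1 and 16.3 FPKM in control and at 20.5, 21.7 and 19.96 FPKM in cKO, without overlap (log2 fold change 0.35 ± 0.07 SE, limma adjusted p = 0.0118). *Setd3*, known as a histidine methyltransferase of actin rather than of histones, was at 43.3, 37.8 and 42.3 FPKM in control and at 27.9, 35.8 and 33.4 FPKM in cKO (log2 fold change -0.34 ± 0.11 SE, adjusted p = 0.0481). The highest cKO library was just under the lowest control library, and without single libraries the adjusted p was 0.0386 to 0.138, past the threshold without control replicate 1, control replicate 3, cKO replicate 1 or cKO replicate 3. The call was also lost without the filter on FPKM, without the intensity trend, with FPKM without the library factor and under quantile normalisation. *Setd4* and *Setd6* were not called (log2 fold changes -0.15 and 0.11). Over all 22 SET domain methyltransferase genes, 6 were higher (27.3%, against 11.8% of all genes tested) and 2 lower (9.09%, against 22.2%).

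Of the 18 demethylase genes, 1 was higher (5.56%, against 11.8% of all genes tested) and 3 were lower (16.7%, against 22.2%), and the largest change was the fall of *Kdm4d*. KDM4D removes di- and trimethylation from H3K9 and is known for its expression in the testis. Its transcript was at 13.2, 9.62 and 10.6 FPKM in control and at 2.38, 2.70 and 2.001 FPKM in cKO, from 620, 422 and 523 fragments against 107, 113 and 87 fragments. The groups were far apart, with 21.2% of the control mean left (log2 fold change -1.85 ± 0.14 SE, limma adjusted p = 0.000112). Leaving out 1 library gave log2 fold changes from -1.94 to -1.73. Its fall stands beside that of the pachytene and spermatid markers (8 of 8 and 10 of 10 lower), and the part of these stages in it was not tested.

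*Kdm4d* lies on the minus strand of chr9:14462548-14500482 (GRCm38), with 2861 exonic bases in 2 transcripts, and 96.54% of its 100-base windows occur in no other annotated gene. Its promoter, chr9:14500433-14500732 on the minus strand (RefSeq, GRCm38.p6), is shown as that of the gene with the largest fall, with TGACG, found in the cAMP response element, and CCGGAAG, a core bound by ETS factors, in capitals.
Kdm4d: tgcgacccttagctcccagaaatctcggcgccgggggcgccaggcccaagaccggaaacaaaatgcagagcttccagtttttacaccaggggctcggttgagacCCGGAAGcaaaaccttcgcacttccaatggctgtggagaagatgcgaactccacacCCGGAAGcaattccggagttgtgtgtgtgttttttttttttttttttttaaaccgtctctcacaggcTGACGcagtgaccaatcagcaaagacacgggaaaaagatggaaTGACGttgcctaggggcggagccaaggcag
Each of these motifs occurred 2 times in this window. Over both strands, TGACG was found in 21.95% of the 41 promoters of these families and 21.02% of all promoters, and CCGGAAG in 17.07% and 9.12%. The GC content of 52.7% equalled the median of all promoters. AACNG, the core of MYB sites, was found 3 times, and in 80.5% and 80.4% of the promoters.

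The 3 other *Kdm4* genes, whose products act on H3K9 and H3K36, were not called. *Kdm4a* was at 5.41, 5.59 and 6.70 FPKM in control and at 6.49, 4.09 and 5.43 FPKM in cKO, with overlapping groups (log2 fold change -0.14 ± 0.16 SE, limma adjusted p = 0.552), and its sign turned under quantile normalisation (0.16) and without cKO replicate 2 (0.01). *Kdm4b* and *Kdm4c* had log2 fold changes of -0.35 and -0.30 with adjusted p of 0.106 and 0.0744, and both were among the lower calls without control replicate 2. *Kdm4b* was the most abundant of the 4 in each library. In control *Kdm4d* and *Kdm4b* were close, at 11.1 ± 1.83 and 12.3 ± 1.89 FPKM (SD, n = 3 each), and in cKO *Kdm4d* was the least abundant of the 4, under *Kdm4b* at 7.93 to 10.5 FPKM. The summed level of the 4 genes was 31.8 to 40.2 FPKM in control and 21.2 to 25.4 FPKM in cKO.

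Of the 2 flavin-dependent demethylases of H3K4, *Kdm1b* was lower and *Kdm1a* was not called. *Kdm1b* (LSD2), which is needed in oocytes for the methylation of imprinted genes, was at 13.8, 11.6 and 12.0 FPKM in control and at 8.39, 9.46 and 10.2 FPKM in cKO (log2 fold change -0.38 ± 0.11 SE, limma adjusted p = 0.0304). The groups did not overlap, but the call was lost without control replicate 1, control replicate 3, cKO replicate 1 or cKO replicate 2 (adjusted p of 0.0686 to 0.0928), without the filter on FPKM and under quantile normalisation (log2 fold change -0.18, adjusted p = 0.211). The strand setting of the counting is not given, and 9.19% of its exonic bases lie opposite those of *Dek*, which was called higher (log2 fold change 0.52). *Kdm1a* (LSD1), the subunit of CoREST complexes, was at 44.4, 37.8 and 42.2 FPKM in control and at 47.2, 41.9 and 42.0 FPKM in cKO, and the groups overlapped (log2 fold change 0.08 ± 0.09 SE, adjusted p = 0.538).

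*Kdm2b*, which carries a CXXC domain and brings a variant Polycomb complex to CpG islands, was at 11.6, 11.2 and 11.4 FPKM in control and at 9.25, 8.74 and 9.32 FPKM in cKO. The spread within each group was small and the groups did not overlap (log2 fold change -0.29 ± 0.07 SE, limma adjusted p = 0.0217). The call was kept without control replicate 2 and lost without any other single library (adjusted p of 0.0526 to 0.0710), and under quantile normalisation the log2 fold change was -0.08 (adjusted p = 0.436). Other annotated genes share 8.74% of the exonic bases of *Kdm2b*, mostly *Rnf34* on the opposite strand (not called, log2 fold change -0.02). The related H3K36 demethylase *Kdm2a* was at 28.7, 23.7 and 28.1 FPKM in control and at 33.6, 34.0 and 29.0 FPKM in cKO. All cKO libraries were higher, but the gene was not called (log2 fold change 0.25 ± 0.10 SE, adjusted p = 0.10), and it was called under quantile normalisation, limma-voom and FPKM without the library factor of the authors. *Kdm8* was not called (0.11, adjusted p = 0.727).

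*Kdm6b* (JMJD3), which removes the trimethyl mark from H3K27, was the one demethylase called higher. It was at 19.3, 21.3 and 23.1 FPKM in control and at 31.2, 26.4 and 27.4 FPKM in cKO, without overlap (log2 fold change 0.40 ± 0.10 SE, limma adjusted p = 0.0191), and the call was lost without control replicate 1, cKO replicate 1 or cKO replicate 3 (adjusted p of 0.0535 to 0.0601). Its X-linked relative *Kdm6a* (UTX) was at 12.9, 9.30 and 12.9 FPKM in control and at 12.6, 16.3 and 11.2 FPKM in cKO. The groups overlapped and it was not called (log2 fold change 0.18 ± 0.17 SE, adjusted p = 0.468).

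None of the 4 *Kdm5* genes, which demethylate H3K4, was called. *Kdm5a*, the X-linked *Kdm5c* and the Y-linked *Kdm5d* had log2 fold changes of 0.30, 0.26 and 0.28, with all cKO libraries above all control libraries, and *Kdm5b* had -0.22, with all cKO libraries below (adjusted p of 0.0678 to 0.166 for the 4 genes). Quantile normalisation called *Kdm5a*, *Kdm5c* and *Kdm5d* higher, and limma-voom *Kdm5a* and *Kdm5d*. Of the H3K9 demethylases of the *Kdm3* and *Kdm7* families, *Kdm7a* just missed the threshold, at 10.2 to 14.1 FPKM in control and 15.3 to 18.8 FPKM in cKO (log2 fold change 0.42 ± 0.13 SE, limma adjusted p = 0.0505). It was called higher with a pseudocount of 0.1, with the filter at 5 FPKM, without control replicate 3 and under median-of-ratios scaling, quantile normalisation, limma-voom and FPKM without the library factor. *Kdm3a*, which is required for the histone exchange of spermatids, and *Kdm3b* had -0.12 and -0.00 (adjusted p = 0.434 and 0.996).

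Of the 13 *Prdm* genes, 6 were tested and 1 was called higher (16.7%, against 11.8% of all genes tested), and none was lower (against 22.2%). *Prdm15*, a zinc finger regulator of transcription in stem cells and embryos, was at 2.14, 2.54 and 2.11 FPKM in control and at 3.40, 3.10 and 3.27 FPKM in cKO (log2 fold change 0.39 ± 0.11 SE, limma adjusted p = 0.0379). The groups did not overlap, and the call was kept without control replicate 2 (adjusted p = 0.0250) and lost without any other single library (0.0725 to 0.114). The call was also lost without the filter on FPKM, and with quantile normalisation the log2 fold change was 0.71. *Prdm2*, *Prdm4*, *Prdm10*, *Prdm11* and *Prdm16* were not called (log2 fold changes from -0.11 to 0.26), and *Prdm4* at 33.3 ± 2.20 FPKM in control was the most abundant (SD, n = 3). *Prdm10* was called higher under quantile normalisation and limma-voom.

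The other 7 *Prdm* genes were under the filter, among them *Prdm1*, *Prdm8*, *Prdm12* and *Prdm14*. Of these, *Prdm1* and *Prdm8* were singled out after their values were seen. *Prdm1* (BLIMP1), which specifies primordial germ cells, was at 0.392, 0.211 and 0.508 FPKM in control and at 1.38, 1.56 and 0.873 FPKM in cKO, from 36, 18 and 49 fragments against 121, 127 and 74 fragments. The cKO libraries were all higher, and in the fit of 35994 genes without the filter the log2 fold change was 0.72 ± 0.18 SE (limma adjusted p = 0.0403). *Prdm8* was at 0.107 to 0.403 FPKM in control, from 9 to 30 fragments, and had 0, 0 and 3 fragments in the cKO libraries, which is at or under the floor of 3 fragments (adjusted p = 0.0797 in the same fit).

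The ratio of family members within a library does not depend on a factor applied to that library except through the pseudocount, and quantile normalisation, which is not such a factor, was not applied to the ratios. Of 15 pairs of related genes, 8 had log2 ratios that did not overlap between the groups. Among all single genes tested, 21.8% did not overlap with cKO higher and 28.6% with cKO lower. No share over pairs of other genes was computed, so the count is not a result particular to these pairs. With 3 libraries against 3, the exact two-sided permutation test cannot give a p below 0.1, which each of these 8 pairs reached (Benjamini-Hochberg adjusted p = 0.188 over the 15 pairs), so no pair could pass 0.05. The log2 ratio of *Kdm4a* to *Kdm4d* was -1.14, -0.69 and -0.59 in control and 1.15, 0.46 and 1.10 in cKO, a shift of 1.71. *Kdm4d* was thus the more abundant of the pair in every control library and *Kdm4a* in every cKO library. The ratio of *Setd1a* to *Setd1b* rose from 3.40, 2.97 and 3.23 to 4.32, 4.56 and 4.21, and *Setd1a* was the more abundant gene in all 6 libraries. The shifts of the other 6 pairs were smaller, 0.59 for *Kmt2a* to *Kmt2b*, 0.55 for *Kdm2a* to *Kdm2b*, 0.52 for *Kdm5a* to *Kdm5b*, 0.46 for *Kdm1a* to *Kdm1b*, 0.30 for *Setdb1* to *Setdb2* and 0.21 for *Kmt5b* to *Kmt5c*. The ratio of *Kmt2c* to *Kmt2d* moved by 0.72, but a cKO library at 1.19 was under a control library at 1.21 (exact p = 0.2, adjusted p = 0.30). *Kdm4b* to *Kdm4c* and *Kdm5c* to *Kdm5d* had differences of -0.05 and -0.03.

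**Figure D3:**
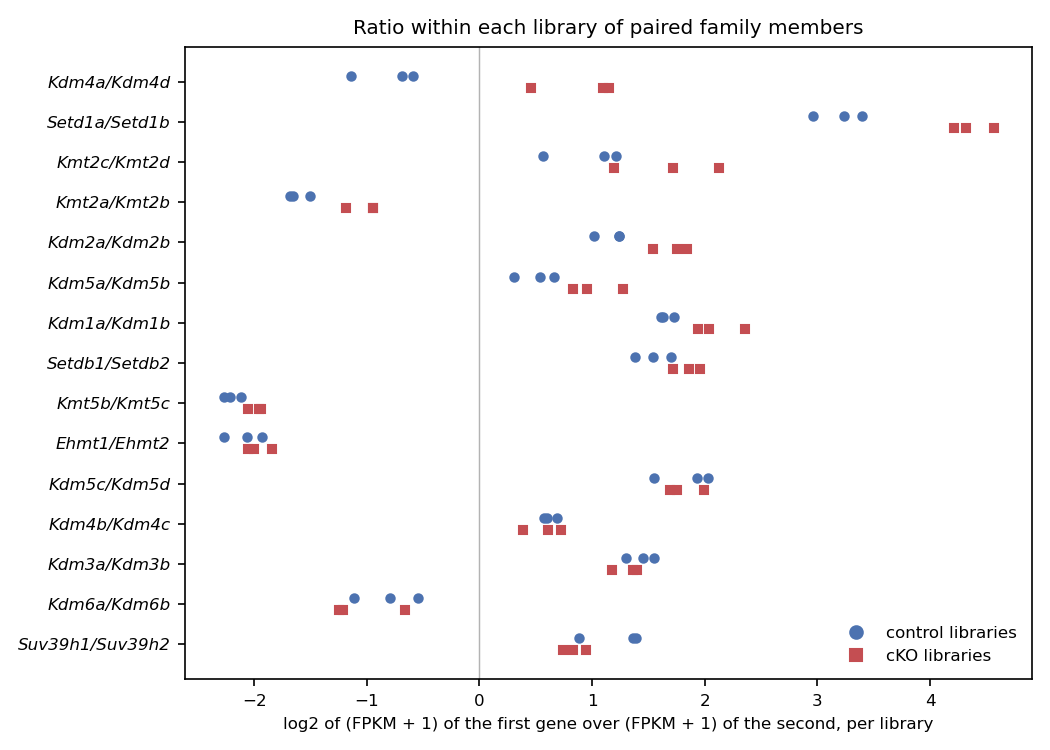
Log2 of (FPKM + 1) of the first gene over (FPKM + 1) of the second (x axis) for 15 pairs of related genes, with 1 point per library, blue circles for control and red squares for cKO. The line marks equal levels, which *Kdm4a*/*Kdm4d* crosses, from between -1.14 and -0.59 in control to between 0.46 and 1.15 in cKO.

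Summed over each class, levels per length differed most for the H3K4 methyltransferases, at 135% of the control mean in cKO, and the *Kdm4* genes, at 62.5%. *Setd2* alone stood at 132% and the H3K27 demethylases at 127%, and in these 4 classes the cKO libraries did not overlap the control libraries. The H3K9 methyltransferases also lay apart, at 250 to 261 FPKM in control and 278 to 289 FPKM in cKO (111%). The other classes ranged from 90.8% to 109% with overlap. All SET domain methyltransferases together came to 113% and all demethylases to 102%. The sum over the 53 genes was 851 to 945 FPKM in control and 955 to 1006 FPKM in cKO.

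**Figure D4:**
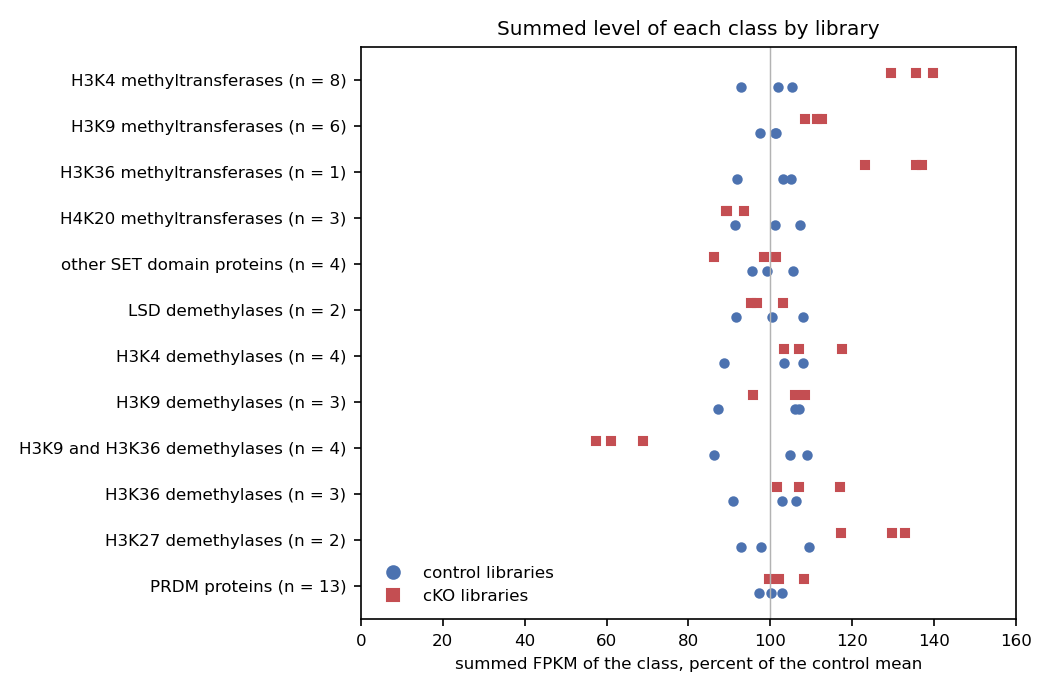
Summed FPKM of each class in every library as percent of the mean of the control libraries (x axis), blue circles for control and red squares for cKO, with the number of genes in each class. The H3K4 methyltransferases lie to the right in all 3 cKO libraries (135% on average) and the *Kdm4* genes, named there as H3K9 and H3K36 demethylases, to the left (62.5%).

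The log2 fold changes were also set against exon length. Over the 46 genes, Spearman's rho of the log2 fold change with the exon length was 0.45, a description across genes of the same 6 libraries, where it was 0.10 over all 15451 genes. Of the 18 genes with at least 10000 exonic bases, 5 were higher and 2 lower (11.8% and 22.2% of all genes tested, of any length), and the median of their log2 fold changes was 0.27. Of the 28 shorter genes, 3 were higher and 3 lower, with a median of 0.09.

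The partners and relatives of these enzymes were examined as 67 further genes in 6 lists, of which 62 were tested, 11 were higher (17.7%, against 11.8% of all genes tested) and 6 lower (9.68%, against 22.2%), and the higher calls fell to 7 without cKO replicate 3. Among 10 other lysine methyltransferases tested, 2 were higher and 1 lower. *Ash1l*, which methylates H3K36 and opposes Polycomb silencing, was at 12.9, 12.3 and 13.2 FPKM in control and at 24.9, 24.7 and 23.7 FPKM in cKO. The spread was small and the groups did not overlap (log2 fold change 0.88 ± 0.07 SE, limma adjusted p = 0.000109). *Nsd1*, an H3K36 dimethyltransferase, also rose (0.49, adjusted p = 0.00460), and *Smyd4* fell (-0.48, adjusted p = 0.00722). Of 12 subunits of COMPASS, the complexes around KMT2 and SET1 enzymes, 1 was higher, *Rbbp5* (0.28), and 2 were lower. The lower genes were *Cxxc1* (-0.47), the CpG-binding subunit of the SET1 complexes, and *Psip1* (-0.33). These COMPASS shares, 8.33% higher and 16.7% lower, were under those of all genes tested (11.8% and 22.2%). The higher COMPASS call was lost without any 1 of the 6 libraries, and 1 of the 2 lower calls was left without control replicate 1, control replicate 3, cKO replicate 2 or cKO replicate 3.

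The counts of the next lists stand beside 11.8% of all genes tested called higher and 22.2% called lower. Of 11 subunits of PRC2, the complex that methylates H3K27, 3 were higher (27.3%), among them *Eed* (0.36) and *Rbbp7* (0.27), and 1 was lower (9.09%). That was *Phf1*, a subunit that binds H3K36 trimethylation, at 45.1, 40.5 and 37.3 FPKM in control and at 20.7, 20.1 and 22.5 FPKM in cKO, or 51.5% of control (log2 fold change -0.92 ± 0.09 SE, limma adjusted p = 0.000321). Of 9 partners of LSD1, *Hdac2* (0.39) and *Hmg20b* (0.27) were higher, and 1 call was left without any 1 of the 6 libraries. *Rcor3*, a CoREST paralogue, was lower, at 2.34, 2.26 and 2.25 FPKM in control and at 0.556, 0.592 and 0.430 FPKM in cKO, without overlap (log2 fold change -1.11 ± 0.13 SE, adjusted p = 0.000818). Of 10 other JmjC proteins, *Jmjd4* (0.46) was higher and *Phf2*, an H3K9 demethylase, was lower. *Phf2* was at 11.9, 8.35 and 8.97 FPKM in control and at 3.17, 1.69 and 2.75 FPKM in cKO, and 26.1% of the control mean was left (log2 fold change -1.61 ± 0.20 SE, adjusted p = 0.00103). Of 10 partners of H3K9 methylation, 2 were higher, *Mphosph8* (0.52) and *Zfp644* (0.31), and none was lower. The number higher was 1 without control replicate 1, control replicate 3, cKO replicate 2 or cKO replicate 3, and 3 without control replicate 2. Of the JmjC proteins, 2 were higher without control replicate 2 or cKO replicate 2 and none without cKO replicate 3, and 2 were lower without control replicate 2.

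Other families that modify histones had these counts in the same fit. Of 8 arginine methyltransferases tested, 1 was higher (12.5%) and 2 lower (25.0%), of 11 histone acetyltransferases 4 (36.4%) and 2 (18.2%), and of 9 histone deacetylases 1 and 1 (11.1% each), where 11.8% of all genes tested were higher and 22.2% lower. Without single libraries, the lower acetyltransferases fell to 1 (without control replicate 2, control replicate 3 or cKO replicate 1) or 0 (without any other), and the lower deacetylase was lost without control replicate 1, control replicate 3, cKO replicate 1 or cKO replicate 3. Without control replicate 2, 2 arginine methyltransferases were higher. The median log2 fold changes of these families were 0.12, -0.08 and -0.03, beside 0.11 for the 46 lysine methyltransferase, demethylase and PRDM genes.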

How the data were processed

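RNA-seq was analysed from 3 control and 3 cKO libraries of STRA8+ cells, grouped by the genotype in their labels. The authors deposited 1 table of FPKM per gene and library. The submitters' processing notes name HISAT2 2.0.5 and mm10, and the counting tool, annotation and strand setting are not given in the sources used here. All values gave whole fragments within a tolerance of 0.05 (100% of values), from which depth was taken (14447887 to 17310353 fragments), and the authors' denominator was 0.971 to 1.05 times the fragments counted.

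Genes averaging 1 FPKM or more were tested on log2(FPKM + 1), which understates changes of low genes, with limma 3.58.1 in R 4.3.3 (intensity trend, Benjamini-Hochberg adjustment over 15451 genes, threshold 0.05). "Called" means past this threshold, "higher" and "lower" refer to cKO. Data were also simulated with the sizes and mean levels of these libraries, 1 assumed spread for all genes and 100 genes changed by each fold. There, 23% of 1.5-fold and 82% of 2-fold changes were recovered. The spread was not taken from the data, and 5258 genes were called in the data, so these shares need not hold for the real test. Pairs of related genes were compared with exact permutation tests (scipy 1.17.1). Called genes, and both genes of a pair with a call, were named with all values, as were at most 3 called genes of each related list. Members and lists were chosen with earlier results of these data known. The alternatives were other pseudocounts, filters, scalings and tests, a replicate block and leaving out each library. The *Prdm* gene left out by the rule is not reported here. Overlapping exons came from GENCODE M21, promoters from RefSeq (first start listed).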

Additional observations from a re-analysis of the deposited data

How the results depend on the processing

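The counts of called genes depended on the setting. No called gene named among the 46 changed sign, while *Kdm4a*, which was not called, turned positive with quantile normalisation (0.16) and without cKO replicate 2 (0.01). Quantile normalisation gave 20 higher and 2 lower among the 46 genes, 5164 higher among all genes (33.4%, with 2527 or 16.4% lower, so that higher calls outnumbered lower ones) and 25 higher among the related lists. With limma-voom on the fragments, 15 of the 46 and 17 of the related genes were higher, where 16.1% of all genes were. Without the filter on FPKM, 3 of the 46 were lower, and with a mean of at least 5 FPKM, 1950 of all genes were lower. With an absolute log2 fold change of at least 1, 0 of the 46 were higher and 1 was lower, 177 of all genes were higher and 1939 lower, and 0 of the related genes were higher and 2 lower. Leaving out 1 library gave 5 to 8 higher and 2 to 9 lower among the 46, 969 to 1767 higher and 2693 to 3510 lower among all genes, and 7 to 11 higher and 5 to 7 lower among the related lists. The log2 ratio of *Setd1a* to *Setd1b* differed by 1.81 with a pseudocount of 0.1. The causes were not tested. With the replicate number as a block, 3 of the 46 were higher and 2 lower (*Kmt2a*, *Kmt2c*, *Setd2*, *Kdm4d* and *Setd1b*), 891 of all genes and 5 of the related genes were higher, and the calls of *Ehmt1* (adjusted p = 0.0602) and *Setd5* (0.0624) were lost under this setting and under the minimum fold change only. Deviations from the group means correlated at -0.00138, -0.111 and 0.0161 for libraries with the same number. For libraries with different numbers the correlations were -0.155 to 0.135. These values cannot show whether equal numbers mark pairs, which the labels do not say. Depth limits the genes under the filter, where *Prdm8* had at most 3 fragments in a cKO library.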
